A study of Mus musculus with 6 samples.

Results

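The chemokine genes *Ccl1*, *Ccl3*, *Ccl4*, *Ccl5*, *Ccl9*, *Ccl17*, *Ccl22*, *Cxcl9* and *Cxcl10* were examined in RNA-seq of splenic CD4+ T cells that received MAPK13-IN-1 or DMSO. They were chosen as a list of symbols and looked up in the gene-name column of the deposited tables, where all 9 of 9 were found among 36438 symbols in the series. Chemokines are small secreted proteins that direct the migration of leukocytes by binding G protein-coupled receptors, and T cells stimulated through the T cell receptor are a source of several of them. The products of *Ccl3*, *Ccl4* and *Ccl5* attract activated T cells and monocytes, whereas those of *Ccl17* and *Ccl22* bind CCR4 and that of *Ccl1* binds CCR8, receptors carried by Th2 and regulatory T cells. The products of *Cxcl9* and *Cxcl10* are interferon-inducible ligands of CXCR3, a receptor of Th1 cells.

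CD4+ T cells were taken from mouse spleen, stimulated with anti-CD3/CD28 antibodies and sequenced as 3 libraries per group, 6 in all. The DMSO group received the solvent and the MAPK13-IN-1 group an inhibitor of the kinase encoded by *Mapk13*. The comparison therefore asks which transcripts differ when that compound is given during stimulation. Activity of the kinase is not measured by RNA-seq, so other effects of the compound cannot be told apart from inhibition of the kinase. The series text gives 72 h of stimulation with inhibitor or solvent present, while the labels of replicates 2 and 3 give wild-type cells to which 17.1 µM inhibitor or 0.1 µl DMSO was added after day 1. The labels of the replicate 1 pair give no genotype and no dose, and no label names a strain or age or says that replicates came from separate animals or cultures, so p-values measure only the spread between these libraries, which may be technical.

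Replicates 2 and 3 of each group were prepared with poly-T beads and are available as read counts per gene, here called the count libraries. Their totals were 26874805 and 28487403 counts for DMSO and 33854760 and 32617702 counts for MAPK13-IN-1. The replicate 1 pair was prepared with a stranded mRNA kit and is available as values read here as FPKM, a length-scaled and depth-scaled unit inferred from the values, with unknown depth. Levels in the count libraries are given as CPM on the TMM-scaled library total, in which 3 counts, taken as the floor, correspond to 0.116 and 0.110 CPM in the DMSO libraries and to 0.0845 and 0.0885 CPM in the MAPK13-IN-1 libraries. The 2 preparations were never joined in a fit, and levels in CPM and in FPKM are not compared with each other.

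The labelled cell type was checked with marker genes. *Cd4* had 275 and 276 CPM in the DMSO count libraries and 267 and 283 CPM in the MAPK13-IN-1 count libraries, and 118 and 146 FPKM in the replicate 1 pair. B lineage RNA was read from *Cd79a* and T lineage RNA from *Cd3e*. *Cd79a* against *Cd3e* per kilobase gave 4.82 and 4.61 with DMSO, 16.2 and 12 with MAPK13-IN-1, and 0.126 and 0.0774 in the replicate 1 pair. By these 2 genes the count libraries held far more B lineage RNA beside their T cell RNA than the replicate 1 pair did. Gene lengths may differ between the 2 preparations, since those behind the FPKM values are unknown. The rise of the ratio with MAPK13-IN-1 lies mostly in *Cd3e*, which fell by 1.37 on the log2 scale, while *Cd79a* rose by 0.18. That rise depends on the marker, since *Cd4* had a log2 fold change of -0.00064. Most of the listed CD4 T cell markers fell, as given below. The RNA is from bulk samples, in which fewer cells of a type and less RNA per cell cannot be told apart.

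Among the chemokine genes, *Ccl1* and *Ccl4* were lower and *Ccl5* and *Cxcl9* were higher with MAPK13-IN-1 than with DMSO in the count libraries. Those libraries are labelled CD4+ T cells but also held B lineage RNA, so the cells in which these genes differed are not known. In the replicate 1 pair each of the 9 genes was higher with MAPK13-IN-1. In the count libraries 8 of the 9 passed the filter on low counts, and *Ccl17* did not and was not tested. By the quasi-likelihood test of edgeR at a Benjamini-Hochberg threshold of 0.05, 4 of the 8 genes passed in either direction, beside 63.8% of all 16269 genes tested. The count of 2 lower stands beside 32.3% of all genes called lower, and the count of 2 higher beside 31.5% called higher, so neither share differs much from the background. The groups did not overlap, with both MAPK13-IN-1 libraries below both DMSO libraries, for 3 of the 8 chemokine genes, beside 41.4% of all genes, and in the other direction for 2 of the 8, beside 41.7%. The median log2 fold change of the 8 was 0.08, against 0.01 over all genes tested. *Cxcl9* passed the filter only through the MAPK13-IN-1 libraries, where it is high, and *Ccl1* only through the DMSO libraries, where it is high, so these counts are a description.

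**Figure D1:**
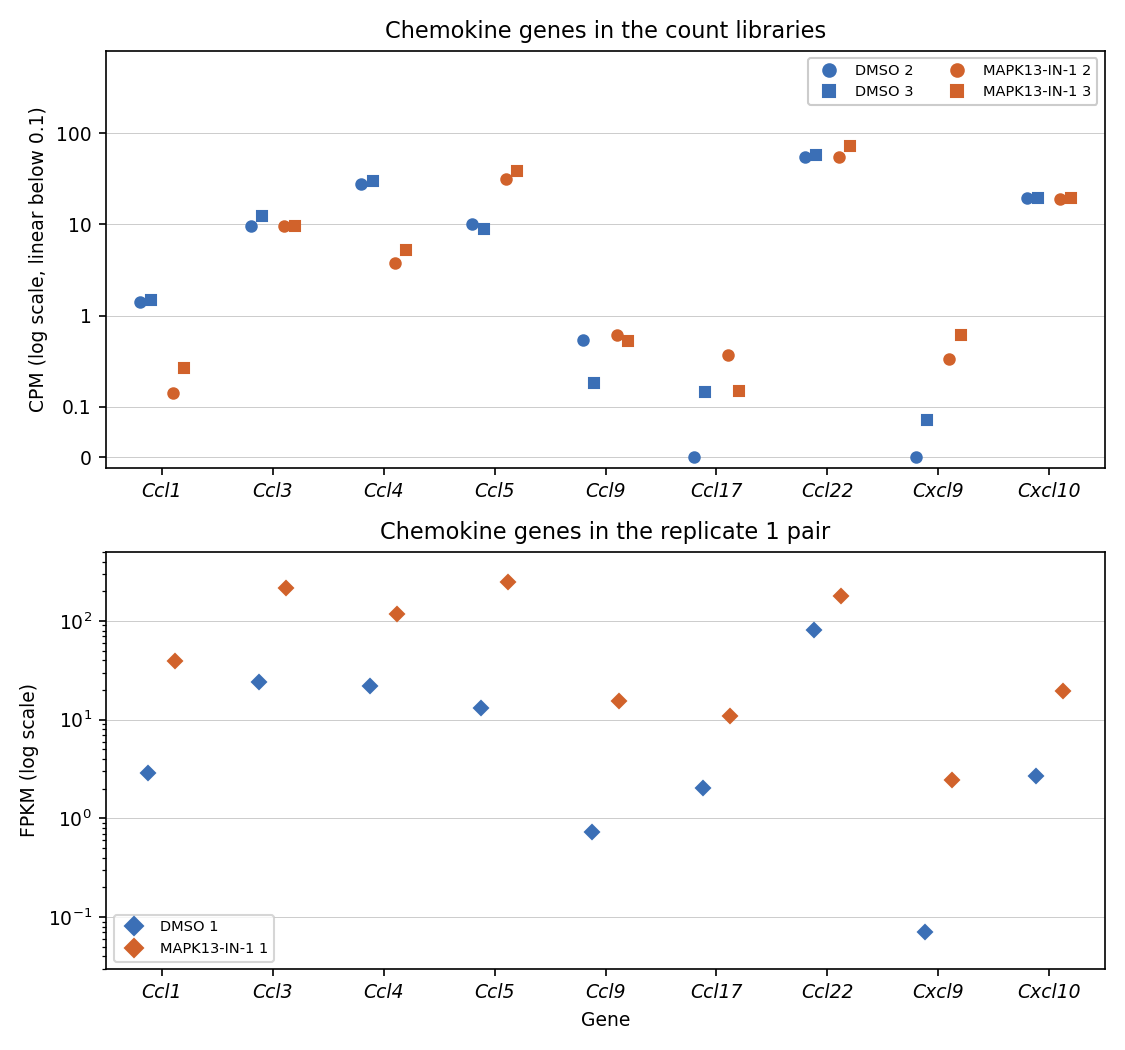
Level of each chemokine gene in every library, in CPM on a log scale that is linear below 0.1 (top: 4 count libraries) and in FPKM on a log scale (bottom: replicate 1 pair). Each point is 1 library, blue for DMSO and orange for MAPK13-IN-1. The orange points of *Ccl1* and *Ccl4* lie below the blue ones at the top, and every orange point lies above its blue one at the bottom.

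Of the ligands of Th2-associated receptors, *Ccl1* was read with 36 and 40 counts under DMSO and with 5 and 9 under MAPK13-IN-1. Both MAPK13-IN-1 libraries were below both DMSO libraries, at 0.203 ± 0.0882 CPM against 1.43 ± 0.0528 CPM (SD, n = 2). *Ccl1* fell by 2.80 on the log2 scale (SE 0.433, adjusted p = 0.000240, edgeR quasi-likelihood test, Benjamini-Hochberg), a difference of 7.05 times in mean CPM. Both MAPK13-IN-1 libraries were below the minimum count of 10, so *Ccl1* entered the test only through the group where it is high. The direction was the opposite in the replicate 1 pair, with 2.89 FPKM for DMSO and 39.3 FPKM for MAPK13-IN-1, which is 13.6 times higher. Whether the effect on *Ccl1* differs between the preparations was not tested.

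*Ccl22*, whose product attracts CCR4-bearing cells and which is also a product of dendritic cells and activated B cells, had 1418 and 1558 counts with DMSO and 1965 and 2436 counts with MAPK13-IN-1. This was 55.0 and 57.3 CPM with DMSO and 55.4 and 71.9 CPM with MAPK13-IN-1, so the groups overlapped and MAPK13-IN-1 replicate 3 stood above the other 3 libraries. The log2 fold change of *Ccl22* was 0.18 (95% interval -0.06 to 0.42) and did not pass (adjusted p = 0.168, edgeR quasi-likelihood test, Benjamini-Hochberg). The call depended on scaling and on 1 library. *Ccl22* passed as higher with scaling by the upper quartile (log2 fold change 0.26) or by library totals (0.30) and without MAPK13-IN-1 replicate 2 (0.36), and had a log2 fold change of -0.03 without MAPK13-IN-1 replicate 3. Each fit with a library left out has 1 library in that group and takes the spread from the other group alone, so whether *Ccl22* or another gene passes there is weak evidence. The replicate 1 pair had *Ccl22* at 81.7 FPKM with DMSO and 181 FPKM with MAPK13-IN-1, 2.21 times higher, the smallest ratio among the 9 genes.

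*Ccl17*, the other gene for a CCR4 ligand, was at the edge of detection in the count libraries, with 0 and 4 counts for DMSO and 13 and 5 counts for MAPK13-IN-1. DMSO replicate 3 and MAPK13-IN-1 replicate 3 were both at about 0.147 or 0.148 CPM, and MAPK13-IN-1 replicate 2 was the highest at 0.366 CPM. The summed counts of 4 and 18, set against the scaled totals, give a ratio of 3.44, with an exact 95% binomial interval of 1.13 to 14.0 that covers counting error only. Fitted without DMSO replicate 3, which leaves 0 counts in that group, *Ccl17* passed as higher with a log2 fold change of 6.06. It did not pass when DMSO replicate 2 (0.78) or MAPK13-IN-1 replicate 3 (2.21) was left out, nor with no filter (1.73). The replicate 1 values of *Ccl17* were 2.04 FPKM with DMSO and 11.0 FPKM with MAPK13-IN-1, 5.38 times higher.

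Of the neighbours *Ccl3*, *Ccl4* and *Ccl5*, *Ccl4* was read with 718 and 810 counts under DMSO and with 133 and 176 under MAPK13-IN-1. The libraries of the 2 groups were far apart, at 28.8 ± 1.37 CPM with DMSO and 4.47 ± 1.02 CPM with MAPK13-IN-1 (SD, n = 2). *Ccl4* fell by 2.69 on the log2 scale (SE 0.147, adjusted p = 2.10e-07, edgeR quasi-likelihood test, Benjamini-Hochberg), to a mean CPM 6.45 times lower. The replicate 1 pair again had the opposite direction, with 21.9 FPKM for DMSO and 118 FPKM for MAPK13-IN-1, 5.42 times higher, and that difference between preparations was not tested.

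*Ccl5*, which encodes a chemokine released by effector T cells and stored in cytotoxic granules, moved the other way in the count libraries. It had 257 and 241 counts with DMSO and 1118 and 1289 counts with MAPK13-IN-1. The group means were 9.41 ± 0.781 CPM and 34.8 ± 4.62 CPM (SD, n = 2), and each MAPK13-IN-1 library was above each DMSO library. *Ccl5* rose by 1.89 on the log2 scale (SE 0.123, adjusted p = 6.50e-07, edgeR quasi-likelihood test, Benjamini-Hochberg), 3.69 times in mean CPM. By FPKM in the replicate 1 pair, *Ccl5* was 13.3 with DMSO and 246 FPKM with MAPK13-IN-1, 18.5 times higher. *Ccl5* was thus the 1 gene of these 3 that was called higher in the count libraries and was higher in the replicate 1 pair.

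*Ccl3*, which encodes the close relative of CCL4, had 250 and 336 counts with DMSO and 343 and 323 counts with MAPK13-IN-1. In CPM the DMSO libraries were at 9.70 and 12.4 and the MAPK13-IN-1 libraries at 9.66 and 9.53, so that DMSO replicate 3 stood apart and the other 3 libraries were close together. The log2 fold change of *Ccl3* was -0.20 (95% interval -0.52 to 0.11, adjusted p = 0.237, edgeR quasi-likelihood test, Benjamini-Hochberg). *Ccl3* and *Ccl4* thus had unlike log2 fold changes in the count libraries, although the difference between the genes was not tested. *Ccl3* in the replicate 1 pair was 24.0 FPKM with DMSO and 213 FPKM with MAPK13-IN-1, 8.90 times higher.

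*Ccl9*, whose product is a ligand of CCR1 best known from myeloid cells, had 14 and 5 counts with DMSO and 22 and 18 counts with MAPK13-IN-1. In CPM the MAPK13-IN-1 libraries, at 0.620 and 0.531, lay around the DMSO library at 0.543 and above that at 0.184, so the groups overlapped. Its log2 fold change was 0.67 (95% interval -0.49 to 1.84, adjusted p = 0.284, edgeR quasi-likelihood test, Benjamini-Hochberg). The value for *Ccl9* depended on the DMSO libraries, with 1.61 when DMSO replicate 2 was left out and 0.08 when DMSO replicate 3 was left out, and passed in neither case. *Ccl9* in the replicate 1 pair was 0.733 FPKM with DMSO and 15.3 FPKM with MAPK13-IN-1, 20.9 times higher.

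Of the genes for CXCR3 ligands, *Cxcl9* had 0 and 2 counts with DMSO and 12 and 21 counts with MAPK13-IN-1. Both DMSO libraries were at or under the floor of 3 counts, and both MAPK13-IN-1 libraries were above it. The summed counts of 2 and 33, set against the scaled totals, give a ratio of 12.6 with an exact 95% binomial interval of 3.22 to 108. The fitted log2 fold change of *Cxcl9* was 3.52 (SE 0.889, adjusted p = 0.00549, edgeR quasi-likelihood test, Benjamini-Hochberg), a value that depends on the prior count of the fit. Leaving out DMSO replicate 2 gave 2.62 and leaving out DMSO replicate 3 gave 6.93, the latter with 0 counts in that group, and when MAPK13-IN-1 replicate 3 was left out *Cxcl9* no longer passed the filter. *Cxcl9* in the replicate 1 pair was 0.0706 FPKM with DMSO and 2.47 FPKM with MAPK13-IN-1, 35.0 times higher, the largest ratio of the 9 genes and 1 with a small denominator.

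*Cxcl10* had 507 and 525 counts with DMSO and 674 and 663 counts with MAPK13-IN-1. Once scaled, these were 19.7 and 19.3 CPM with DMSO and 19.0 and 19.6 CPM with MAPK13-IN-1, and the groups overlapped within a narrow range. The log2 fold change of *Cxcl10* was -0.02 (95% interval -0.23 to 0.20, adjusted p = 0.900, edgeR quasi-likelihood test, Benjamini-Hochberg). The replicate 1 pair differed, with 2.72 FPKM for DMSO and 19.5 FPKM for MAPK13-IN-1, 7.19 times higher. *Cxcl10* lies inside *Art3*, a gene on the opposite strand, and the strand used in counting is not given in the sources used here, so reads from the 2 genes cannot be told apart in the count libraries.

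**Figure D2:**
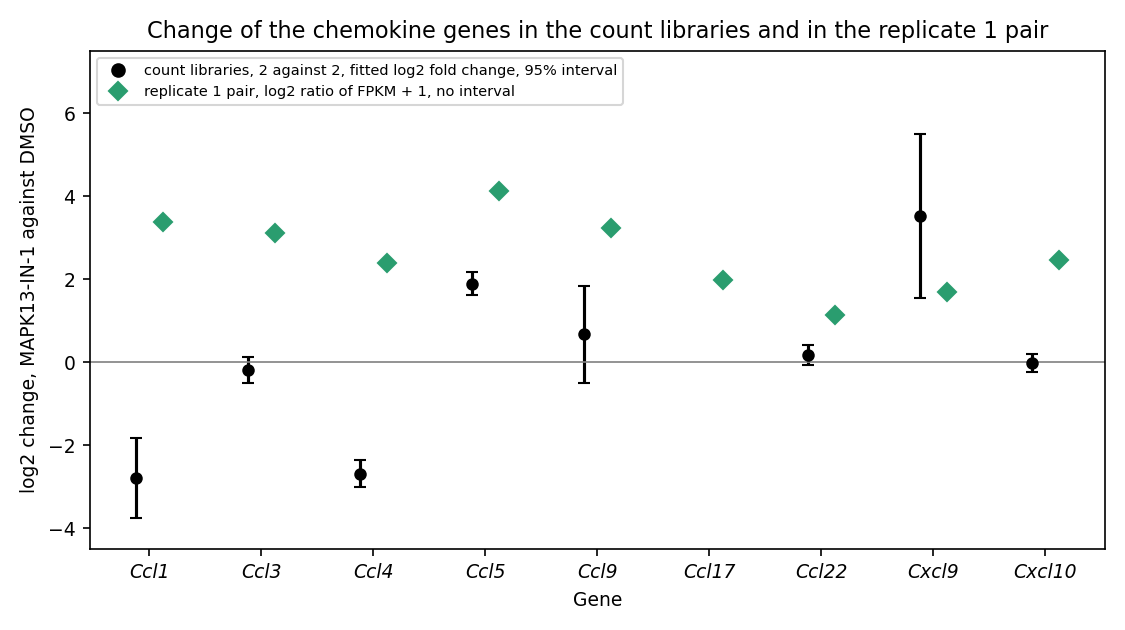
Log2 change of each chemokine gene, MAPK13-IN-1 against DMSO. Black circles are fitted log2 fold changes in the count libraries with 95% intervals (2 against 2, *Ccl17* not tested), and green diamonds are log2 ratios of FPKM + 1 in the replicate 1 pair, which have no interval. All 9 diamonds lie above 1, while the circles of *Ccl1* and *Ccl4* lie at -2.80 and -2.69.

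The replicate 1 pair was read on the log2(FPKM + 1) scale, which understates the change of genes with low values, with 1 library per group and therefore no test. All 9 of 9 chemokine genes were above 0 on that scale, beside 55.6% of the 11071 genes with a mean of at least 1 FPKM. All 9 were higher by at least 1, beside 6.83% of those genes, and 0 of 9 were lower by at least 1, beside 1.94%. *Ccl9* and *Cxcl9* reached that mean only through the MAPK13-IN-1 library, where they are high, so these counts are a description. The median log2 ratio of the 9 was 2.47, against 0.07 over all those genes. Ranked from the top among 11071 genes, *Ccl5* was number 3 (log2 ratio 4.11), *Ccl1* number 12 (3.37) and *Ccl9* number 18 (3.24). *Ccl3* followed as number 20 (3.10), *Cxcl10* as number 59 (2.47), *Ccl4* as number 74 (2.38) and *Ccl17* as number 133 (1.98). *Cxcl9* was number 236 (1.70) and *Ccl22* number 594 (1.14). The summed FPKM of the 9 genes was 149 with DMSO and 846 with MAPK13-IN-1. Their summed CPM in the count libraries was 124 and 129 with DMSO and 121 and 146 with MAPK13-IN-1, where the groups overlapped.

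Of all genes called lower in the count libraries and with a mean of at least 1 FPKM, 4498 in number, 41.5% had the opposite sign in the replicate 1 pair and 4.31% were opposite by at least 1. *Ccl1* and *Ccl4* both belong to the latter share.

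Levels of the 9 genes were ordered within the DMSO count libraries per kilobase of exon. *Ccl4* came first at 43.7 ± 2.08 CPM per kilobase, then *Ccl22* at 24.1 ± 0.699, *Ccl3* at 14.4 ± 2.46, *Ccl5* at 9.81 ± 0.814 and *Cxcl10* at 8.65 ± 0.112 (SD, n = 2). The ranges of these neighbours did not overlap, although *Ccl5* and *Cxcl10* were close. The annotated exons of *Cxcl10* join into 1 block of 2252 bases that covers its whole span, which may lower its value. Its place in the order, in both groups, therefore depends on that length. *Ccl1* stood much lower at 0.605 ± 0.0223 CPM per kilobase, a value lowered by the long union of its annotated exons. *Ccl17*, *Ccl9* and *Cxcl9* were below *Ccl1*, and the range of *Ccl17* overlapped those of both *Ccl9* and *Cxcl9*. With MAPK13-IN-1 the order per kilobase was led by *Ccl5* at 36.2 ± 4.82 CPM per kilobase, ahead of *Ccl22* at 27.4 ± 5.03 and *Ccl3* at 12.5 ± 0.122. *Cxcl10* at 8.56 ± 0.181 and *Ccl4* at 6.77 ± 1.55 followed, so *Ccl4* went from the first place to the fifth and *Ccl5* from the fourth to the first. *Ccl17* came sixth at 0.500 ± 0.301 CPM per kilobase, then *Ccl9* at 0.189 ± 0.0206, *Cxcl9* at 0.159 ± 0.0660 and *Ccl1* at 0.0858 ± 0.0372. *Cxcl9* overlapped both *Ccl9* and *Ccl1*, and *Ccl1* went from the sixth place to the last. In the replicate 1 pair *Ccl22* had the highest FPKM with DMSO and *Ccl5* with MAPK13-IN-1, and *Cxcl9* had the lowest FPKM in both libraries.

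Most of the 9 genes lie in clusters. In GENCODE vM21 on GRCm38, *Ccl5* (chr11:83525778-83530518, minus strand), *Ccl9* (chr11:83572919-83578636, minus strand), *Ccl3* (chr11:83647844-83649355, minus strand) and *Ccl4* (chr11:83662584-83664683, plus strand) share a stretch of chromosome 11. Of these neighbours *Ccl5* was called higher, *Ccl4* was called lower, and *Ccl9* and *Ccl3* were not called in the count libraries. In RefSeq the span of *Ccl4* starts at 83648624 and so reaches into *Ccl3* on the other strand, where reads of the 2 genes cannot be told apart without strand. *Ccl1* lies apart on the same chromosome (chr11:82176666-82179812, minus strand, RefSeq). *Ccl22* (chr8:94745590-94751699) and *Ccl17* (chr8:94810453-94812036) lie near each other on the plus strand of chromosome 8, with *Cx3cl1*, another chemokine gene, between them (chr8:94772009-94782427). *Cxcl9* (chr5:92321347-92328079) and *Cxcl10* (chr5:92346638-92348889) are neighbours on the minus strand of chromosome 5, and of this pair only *Cxcl9* was called.

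**Figure D3:**
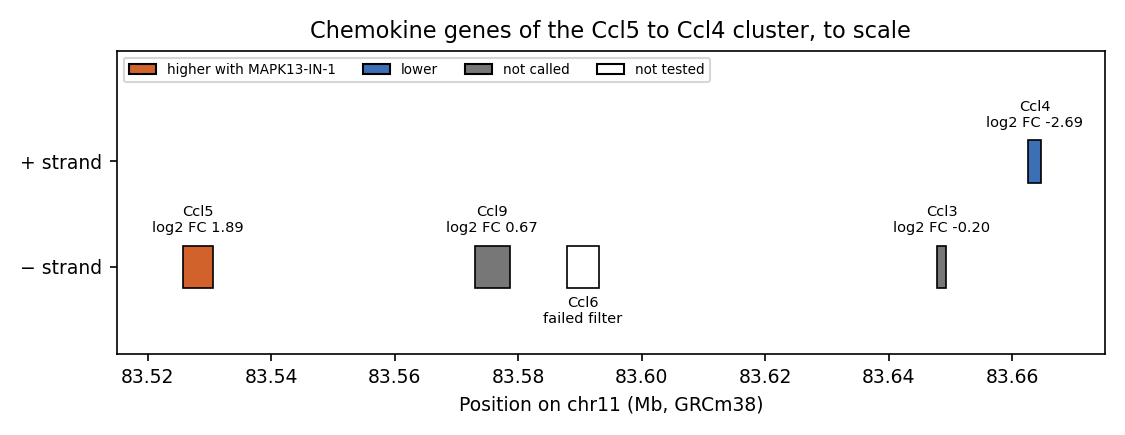
Map to scale of the chemokine genes from *Ccl5* to *Ccl4* on chromosome 11, position in Mb of GRCm38 on the horizontal axis and strand on the vertical axis, coloured by the call in the count libraries and labelled with the log2 fold change. *Ccl5* at 1.89 and *Ccl4* at -2.69 stand at the 2 ends of the stretch, and *Ccl6*, another chemokine gene, failed the filter.

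Promoter sequences were taken from RefSeq (GRCm38.p6) as the 250 bases before the start that the promoter table gives, and 7 of the 9 genes matched, all but *Ccl4* and *Ccl5*. For *Ccl17* that start lies inside the RefSeq span of the gene, which begins at 94809380, and the window is chr8:94810203-94810452 on the plus strand. Motif letters were searched on both strands, and a match is a description of letters and not a site. The NF-kB letters GGGANNTTC were in 3 of the 7 (*Ccl1*, *Cxcl9* and *Cxcl10*) and in 3.17% of all 27025 promoters. The interferon response letters GAAANNGAA were in 4 of the 7 (*Ccl1*, *Ccl3*, *Cxcl9* and *Cxcl10*) and in 7.16% of all promoters. When the interferon response letters had to end in a further A, 1 of the 7 and 3.04% of all held them, and when the NF-kB letters had to end in a further C, 2 of the 7 and 1.17%. The STAT letters TTCNNNGAA were in *Ccl17* and in 7.18% of all promoters. The NFAT letters GGAAAA were in 3 of the 7 and 20.6% of all promoters, the AP-1 letters TGANTCA in 2 of the 7 and 6.87%, and the TCF letters CTTTGA in 1 of the 7 and 14% of all promoters. These motifs can share bases with each other, as the NFAT and interferon response letters do in *Ccl1*.

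The promoters of *Ccl1*, which fell in the count libraries, and of the neighbours *Cxcl9* and *Cxcl10*, of which 1 was called and 1 was not, are shown as examples of promoters that hold both the interferon response and the NF-kB letters. They are written 5′ to 3′ on the strand of the gene, which is the minus strand for all 3, with those letters in capitals on whichever strand they matched. The windows are chr11:82179813-82180062 for *Ccl1*, chr5:92328080-92328329 for *Cxcl9* and chr5:92348890-92349139 for *Cxcl10*. In *Cxcl10* the interferon response letters start 213 bases and the NF-kB letters 159 bases before the gene start, in *Cxcl9* they start 175 and 154 bases before it, and in *Ccl1* the interferon response letters start 91 bases before it and the NF-kB letters, found on both strands in overlap, 196 and 194 bases.
Ccl1: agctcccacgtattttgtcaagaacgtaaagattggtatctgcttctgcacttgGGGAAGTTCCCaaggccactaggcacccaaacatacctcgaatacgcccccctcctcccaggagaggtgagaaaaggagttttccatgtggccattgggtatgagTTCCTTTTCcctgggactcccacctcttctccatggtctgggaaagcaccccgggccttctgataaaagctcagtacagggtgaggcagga
Cxcl9: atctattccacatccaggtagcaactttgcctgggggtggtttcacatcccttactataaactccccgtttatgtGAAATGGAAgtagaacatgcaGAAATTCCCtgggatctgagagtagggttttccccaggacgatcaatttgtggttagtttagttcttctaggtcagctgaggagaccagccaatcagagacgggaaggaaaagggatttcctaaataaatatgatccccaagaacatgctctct
Cxcl10: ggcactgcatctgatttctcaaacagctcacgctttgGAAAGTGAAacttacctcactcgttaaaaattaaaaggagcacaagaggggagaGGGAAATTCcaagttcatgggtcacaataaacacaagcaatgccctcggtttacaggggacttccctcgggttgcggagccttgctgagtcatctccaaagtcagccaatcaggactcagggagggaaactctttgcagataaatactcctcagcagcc

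Genes for receptors of these chemokines were read in the same libraries. *Ccr8*, the receptor gene for the *Ccl1* product, had 771 and 906 counts with DMSO and 144 and 144 counts with MAPK13-IN-1, and fell by 2.93 on the log2 scale (SE 0.119, adjusted p = 3.73e-08, edgeR quasi-likelihood test, Benjamini-Hochberg). *Ccr8* in the replicate 1 pair was 58.7 FPKM with DMSO and 43.2 FPKM with MAPK13-IN-1, so that there *Ccl1* was higher and the gene of its receptor lower. *Ccr4*, the receptor gene for the *Ccl17* and *Ccl22* products, had 1965 and 2045 counts with DMSO and 850 and 923 counts with MAPK13-IN-1 and fell by 1.56 on the log2 scale. *Ccr4* in the replicate 1 pair was 46.4 and 68.6 FPKM.

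*Ccr1*, which serves the *Ccl3*, *Ccl5* and *Ccl9* products and is common on myeloid cells, had 219 and 204 counts with DMSO and 670 and 829 counts with MAPK13-IN-1, and rose by 1.44. *Ccr3*, which serves the *Ccl5* product, had 20 and 18 counts with DMSO and 189 and 189 counts with MAPK13-IN-1, and rose by 2.92, with 0.0456 and 0.144 FPKM in the replicate 1 pair. *Cxcr3*, the receptor gene for the *Cxcl9* and *Cxcl10* products, had 439 and 445 counts with DMSO and 503 and 652 counts with MAPK13-IN-1, a log2 fold change of 0.00 (95% interval -0.31 to 0.31), and 12.1 and 13.4 FPKM in the replicate 1 pair. Of the 6 receptor genes tested, 3 were called lower and 2 higher, beside 32.3% and 31.5% of all genes. *Ccl1* and *Ccr8* both fell in the count libraries, and *Ccl5*, *Ccr1* and *Ccr3* all rose. Other pairs did not move alike. *Ccr4* fell while *Ccl22* was not called, *Cxcl9* rose while *Cxcr3* was not called, and *Ccl3* and *Ccl9* were not called beside *Ccr1*. A link between ligand and receptor genes was not tested.

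Of 32 other chemokine genes on the list, 8 passed the filter, 2 were called lower and 2 higher, beside 32.3% and 31.5% of all genes, with a median log2 fold change of 0.03. *Cxcl2*, a neutrophil attractant, had 49 and 61 counts with DMSO and 13 and 25 counts with MAPK13-IN-1 and fell by 1.91 on the log2 scale, with 0.174 and 1.74 FPKM in the replicate 1 pair. *Cxcl3*, of the same family, had 21 and 32 counts with DMSO and 2 and 8 counts with MAPK13-IN-1 and fell by 2.75, with 0.548 and 5.91 FPKM in the replicate 1 pair. Like *Ccl1* and *Ccl4*, both thus fell in the count libraries and had a higher value with MAPK13-IN-1 in the replicate 1 pair. *Ccl27a* rose by 0.49 and *Ccl28* by 2.24, the latter from 5 and 0 counts to 15 and 17 counts. *Cxcl3* and *Ccl28*, like *Ccl1* and *Cxcl9*, passed the filter only through the group where they are high. Among these, 7 had a mean of at least 1 FPKM in the replicate 1 pair, of which all 7 were above 0, beside 55.6% of all such genes, and 4 were higher by at least 1, beside 6.83%. *Cxcl3* and *Xcl1* are among them and, like *Ccl9* and *Cxcl9*, reached that mean only through the library where they are high. Besides *Cxcl3*, these were *Xcl1* (0.282 and 9.83 FPKM), *Cxcl16* (1.98 and 9.84 FPKM) and *Ccl20* (1.80 and 5.94 FPKM), named after their values were seen. Of 13 other chemokine receptor genes tested, 1 was called lower and 6 higher, beside the same shares of all genes, among them *Cxcr4* (log2 fold change 1.33), *Ackr3* (1.76), *Ccrl2* (0.81) and *Cxcr5* (0.38), and 1 of the 6 passed the filter only through the MAPK13-IN-1 libraries.

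Genes of pathways known to drive these chemokines were read from fixed lists, and the counts below stand beside 32.3% of all genes called lower, 31.5% called higher and 63.8% called in either direction. For *Cxcl9* and *Cxcl10*, 5 of 12 interferon gamma signalling genes were called lower and 2 higher, with a median log2 fold change of -0.19. *Ifng*, the gene for the cytokine itself, had 106 and 145 counts with DMSO and 74 and 86 counts with MAPK13-IN-1 and fell by 1.03 on the log2 scale, while in the replicate 1 pair it was 16.4 and 92.6 FPKM. *Jak1* rose by 0.59, *Jak2* fell by 0.77, *Socs1* fell by 1.38, and *Irf1* had a log2 fold change of -0.07 that did not pass. For *Ccl17* and *Ccl22*, 8 of 9 genes of IL-4 and STAT6 signalling were called lower and 1 higher, with a median of -0.75. *Il4* had 240 and 229 counts with DMSO and 11 and 12 counts with MAPK13-IN-1 and fell by 4.72, and was 28.9 and 13.1 FPKM in the replicate 1 pair. *Il13* fell by 4.62, *Gata3* by 1.09, *Jak3* by 0.95 and *Stat6* by 0.71. *Ccl22* itself was not called beside these falls. Beside *Ccl3*, *Ccl4* and *Ccl5*, 5 of 12 NF-kB subunits and inhibitors were called lower and 4 higher (*Tnfaip3* 1.00, *Relb* -1.46, *Nfkb2* -1.19, *Nfkb1* -0.78 in log2 fold change), and in the replicate 1 pair 4 of the 12 were higher by at least 1, beside 6.83% of all genes. Of 10 calcium and NFAT signalling genes, 5 were called lower and 4 higher (*Nfatc2* -1.08, *Stim2* -0.67, *Ppp3ca* 0.83, *Nfatc3* 0.49 in log2 fold change).

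The study's methods name a kit for isolating CD4 T cells, a step meant to remove other cell types. Markers of cell types that also make these chemokines nevertheless were read and moved between the groups, and their part in the chemokine results was not tested. Beside *Ccl22* and *Ccl17*, the 12 B cell markers summed to 1204 and 1169 CPM with DMSO and 1494 and 1507 CPM with MAPK13-IN-1 (scaled by library totals, 7 called higher and 2 lower, *Pax5* most abundant), and to 55.7 and 48.3 FPKM in the replicate 1 pair. The 10 dendritic cell markers summed to 65.0 and 67.8 CPM with DMSO and 70.6 and 64.3 CPM with MAPK13-IN-1 (*Ffar2* most abundant, 4 called higher and 1 lower of 5 tested), with *Cd209a* and *Clec4a4* at 0 in all libraries. *Ffar2*, the 1 called lower, had a mean of 50.1 CPM with DMSO and 10.4 CPM with MAPK13-IN-1 (TMM-scaled), so the even sum hides the rise of the other 4 tested. Replicate 1 values of the dendritic cell markers summed to 9.67 and 16.9 FPKM. Beside *Ccl9* and *Cxcl9*, the 12 macrophage and monocyte markers summed to 12.1 and 11.1 CPM with DMSO and 44.1 and 35.7 CPM with MAPK13-IN-1 (*Cd68* most abundant, 6 of 8 tested called higher), and to 3.06 and 9.99 FPKM in the replicate 1 pair. Beside *Ccl5*, the 2 CD8 T cell markers summed to 11.2 and 10.4 CPM with DMSO and 5.76 and 8.16 CPM with MAPK13-IN-1 (*Cd8b1* most abundant, both called lower), and to 3.49 and 8.39 FPKM in the replicate 1 pair. The 7 natural killer cell markers summed to 0.707 and 1.05 CPM with DMSO and 1.71 and 1.84 CPM with MAPK13-IN-1 (*Tyrobp* most abundant, *Klra8* at 0 in all libraries), and to 0.863 and 3.80 FPKM in the replicate 1 pair. The CD4 T cell markers, 10 of which were in the tables, summed to 2276 and 2307 CPM with DMSO and 1476 and 1584 CPM with MAPK13-IN-1 (7 called lower), and to 1339 and 1250 FPKM in the replicate 1 pair.

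Platelets, mast cells, basophils and neutrophils can also hold or make some of these chemokines, platelets storing the product of *Ccl5*, and the part of their markers in the result was not tested either. The 8 erythroid markers summed to 7.52 and 7.20 CPM with DMSO and 94.4 and 67.1 CPM with MAPK13-IN-1 (*Hbb-bs* most abundant, 6 of 7 tested called higher), and to 0.931 and 1.94 FPKM in the replicate 1 pair. The 7 platelet markers summed to 9.67 and 8.99 CPM with DMSO and 20.6 and 21.5 CPM with MAPK13-IN-1 (*Itga2b* most abundant, all 4 tested called higher, *Ppbp* at 0), and to 1.01 and 2.19 FPKM. The 8 basophil and mast cell markers summed to 1.60 and 1.54 CPM with DMSO and 3.31 and 3.28 CPM with MAPK13-IN-1 (*Hdc* most abundant, both tested genes called higher, *Mcpt8*, *Fcer1a* and *Prss34* at 0 in the count libraries), and to 0.927 and 0.944 FPKM. The 10 neutrophil markers summed to 0.744 and 0.842 CPM with DMSO and 0.886 and 1.35 CPM with MAPK13-IN-1 (*Mpo* most abundant, the 1 tested called higher, *S100a9* at 0 in the count libraries), and to 0.711 and 0.456 FPKM. Of the markers called higher, 3 of the 4 for platelets, 1 of the 2 for basophils and mast cells, the 1 for neutrophils, 1 of the 6 for erythroid cells, 2 of the 6 for macrophages and monocytes and 1 of the 4 for dendritic cells were below 10 counts in both DMSO libraries. They passed the filter only through the group where they are high, so those counts of calls are a description.

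For the chemokine gene with the highest FPKM in the DMSO library of the replicate 1 pair and those with the largest fitted fall and rise, the 3 genes with the likest pattern over the 4 count libraries were found by Euclidean distance of gene-centred log2 CPM. *Ccl22* was likest to *Shisa8* (distance 0.0302), *Eda2r* (0.0473) and *Fzd7* (0.0596). *Ccl1* was likest to *Kremen2* (distance 0.120), *Slc26a10* (0.126) and *Paqr4* (0.140). *Cxcl9* was likest to *Hecw2* (distance 0.381), *Clgn* (0.453) and *Ankrd7* (0.535). With 4 libraries in 2 groups such a distance mostly reflects the difference between the groups. In the replicate 1 pair, where *Ccl1* was 13.6 times higher, *Kremen2* was 1.68 and 1.17 FPKM, *Slc26a10* 5.89 and 6.12 FPKM, and *Paqr4* 6.41 and 3.91 FPKM.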

How the data were processed

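RNA-seq of 6 libraries was grouped by the sample labels. For replicates 2 and 3 the authors deposited raw counts for 35602 genes, not normalized. The number 1 of the replicate 1 pair was given here, since its labels carry none, and its deposited columns carry another number. For that pair the authors deposited values for 34714 genes that are read here as FPKM. That unit is inferred from non-whole values summing to 405150 and 390729. The submitters' processing notes name fastp 0.21.0, HISAT2 2.1.0, StringTie 2.1.5 and DESeq2 1.30.1 for the count libraries and FastQC and HISAT2 for the pair, with mm10 or GRCm38. The annotation and strand setting are not given in the sources used here.

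The analysis of counts used R 4.3.3 and edgeR 4.0.16 (filterByExpr, TMM, quasi-likelihood test, two-sided, 2 libraries against 2, no covariate), with Benjamini-Hochberg adjustment over the 16269 genes tested and a threshold of 0.05. The filter uses a minimum count of 10 and a minimum total of 15. TMM factors were 0.960 and 0.955 for DMSO and 1.05 and 1.04 for MAPK13-IN-1. The fit was tested on simulated data, with changes planted in a small part of the genes and only in genes without low counts. That simulation therefore does not bear on genes with few counts, nor on scaling where many genes change. Variation between replicates exceeded sampling noise (mean chi-square per gene 2.94 for DMSO and 8.82 for MAPK13-IN-1). The pair was compared as log2(FPKM + 1), with no test, for genes with a mean of at least 1. Exon lengths came from GENCODE vM21. Intervals from counts and the floor of 3 counts cover counting error only.

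The members and lists were chosen with earlier results of these data known. Named genes were the members, the receptors of the members, at most 4 genes with the smallest p among those passing in each other list, *Ifng*, *Irf1*, *Il4* and *Stat6*, the most abundant gene of each marker list and its defining markers at 0, and the 3 likest genes (prior count 2, mean log2 CPM of at least 0). *Cxcl11* and *Trac*, on the lists, were not in the tables used here. Some genes that this rule names are not reported here. Alternatives were RLE, upper-quartile and library-total scaling, no filter, at least 10 counts in every library, DESeq2 1.42.0, the replicate number as a block, each library left out, a pseudocount of 0.1, tables rescaled to the same sum, and TMM-scaled marker sums.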

Additional observations from a re-analysis of the deposited data

Results flagged for a closer look

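A set of named genes was called in 1 direction in the count libraries and had the opposite direction in the replicate 1 pair. The comparison is between 2 library preparations, 1 of which has 1 library per group, and the difference was not tested for any of them. Values are log2 ratios of FPKM + 1 in the replicate 1 pair, set beside the fitted log2 fold change of the count libraries.

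*Ccl1* and *Cxcl3* passed the filter only through the DMSO libraries, where they are high. Of the chemokine genes, *Ccl1* had a ratio of 3.37 against -2.80 and *Ccl4* a ratio of 2.38 against -2.69. *Cxcl3*, another chemokine gene, had 2.16 against -2.75. Of the receptors, *Ccr4* had 0.55 against -1.56.

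Of the pathway genes, *Ifng* had 2.43 against -1.03, *Il13* had 1.23 against -4.62 and *Nfkb2* had 0.84 against -1.19. Ratios nearer 0 were those of *Stat6* (0.23 against -0.71), *Jak3* (0.14 against -0.95) and *Socs1* (0.14 against -1.38). *Nfatc3*, called higher in the count libraries, had -0.0326 against 0.49. Of the cell type markers, *Cd8b1* had 1.02 against -0.60, *Pax5* had -0.66 against 0.62 and *Cd79a* had -0.69 against 0.18.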

How the results depend on the processing

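*Ccl1*, *Ccl4*, *Ccl5* and *Cxcl9* kept their direction and passed under every alternative in which they were tested, and *Ccl3*, *Ccl9* and *Cxcl10* passed under none. *Cxcl9* was tested in only 9 of the alternatives and came near the threshold with DESeq2 (log2 fold change 3.69, SE 1.60, adjusted p = 0.0487, Wald test of DESeq2, Benjamini-Hochberg). *Ccl22* passed with upper-quartile scaling (log2 fold change 0.26) and with library totals (0.30), and ranged from -0.0271 without MAPK13-IN-1 replicate 3 to 0.36 without MAPK13-IN-1 replicate 2. Scaling by library totals moved the median over all genes by 0.13. With at least 10 counts in every library, 1 chemokine gene was lower and 1 higher, since *Ccl1*, *Ccl9* and *Cxcl9* were not tested. With 1 library left out, 1 to 3 were higher. Among other chemokines 1 was lower and 1 higher with at least 10 counts in every library, 1 was higher with DESeq2, and 1 to 2 were higher with 1 library left out. Among other chemokine receptors 2 were lower with no filter, 0 with DESeq2, and 1 to 2 with 1 library left out, and the cause was not tested.

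*Ccl17*, untested after filtering, had a log2 fold change of 1.73 with no filter and 1.80 with DESeq2, neither passing, and passed without DMSO replicate 3 (6.06, with 0 counts left in that group). The replicate numbers did not pair the libraries (correlation of deviations -0.0064). The replicate block gave 5384 genes lower and 5261 higher, against 5252 and 5122, and changed no call among the chemokine genes, with *Ccl22* at 0.17.

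In the replicate 1 pair a pseudocount of 0.1 gave log2 ratios of 4.21 for *Ccl9*, 2.37 for *Ccl17*, 3.91 for *Cxcl9* and 2.80 for *Cxcl10*, and tables rescaled to the same sum gave 2.27 for *Ccl17*, 2.64 for *Cxcl9* and 2.73 for *Cxcl10*. With TMM-scaled sums the log2 ratio of the dendritic cell markers was -0.10 in place of 0.02, and those of CD4 T cells (-0.71), B cells (0.21), basophils (0.94) and platelets (1.05) moved by the scaling itself. Counts of *Ccl9*, *Ccl17* and *Cxcl9* near the floor limit what these libraries show for them.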
